A study of Homo sapiens with 28 samples.

Results

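The aryl hydrocarbon receptor group examined here holds 5 genes out of the 19662 gene symbols in both expression tables. AHR encodes the receptor, AHRR its repressor, and CYP1A1, CYP1B1 and TIPARP are target genes of the receptor. The members are listed by symbol and were chosen by the loss of CYP1A1 RPKM between the normoxic and the hypoxic control libraries of PC3 cells, together with the receptor and its other targets. The choice also looked at hypoxia with and without ONECUT2, so every comparison of CYP1A1 in PC3 is given as a description, with no test.

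Gene expression was measured by RNA-Seq in 2 human prostate cancer cell lines with altered ONECUT2 (OC2), a transcription factor, in normoxia and in hypoxia at 0.2% oxygen. PC3, an androgen-independent line, was transfected with a control siRNA (siCtrl) or with siRNA against ONECUT2 (siOC2). By the labels, replicate 1 of each siOC2 group received siRNA1 and replicate 2 siRNA2, so any difference between these siRNAs is part of the spread of the siOC2 libraries. LNCaP, an androgen-sensitive adenocarcinoma line, carried an empty vector (EV) or a vector for Flag-tagged ONECUT2 (Flag-OC2). Which of the vectors in the methods these libraries carry is not given in the sources used here. The 8 groups hold 2 libraries each, 16 in all. No source used here says that the libraries of a group come from separate cultures, so the p-values measure only the spread between these libraries, which may be technical. The time spent in hypoxia is not given in the sources used here.

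AHR is a ligand-activated transcription factor of the bHLH-PAS family. Bound by planar aromatic compounds or by tryptophan metabolites, it enters the nucleus, pairs with ARNT and binds the core of the xenobiotic response element upstream of its targets. ARNT is also the partner of the hypoxia-inducible factors HIF1A and EPAS1 (HIF-2 alpha). CYP1A1 and CYP1B1 encode cytochrome P450 enzymes that oxidize polycyclic aromatic hydrocarbons and estrogens, and CYP1A1 is the classical readout of receptor activity. TIPARP encodes a mono-ADP-ribosyltransferase that ADP-ribosylates the receptor and lowers its activity, and AHRR competes with it for ARNT, so both are targets and negative regulators. TIPARP is known to respond to hypoxia-inducible factors as well.

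The RefSeq promoter windows are shown because the members share the receptor as a regulator. They are the 250 bases before the transcription start on GRCh38.p14, in the direction of transcription, and capitals mark the core GCGTG, written CACGC where it lies on the other strand. CYP1A1 is at chr15:74725529-74725778 on the minus strand, TIPARP at chr3:156674340-156674589 and AHRR at chr5:321464-321713, both on the plus strand. The table holds 3 starts for TIPARP and 2 for AHRR, of which the most upstream was taken.
CYP1A1: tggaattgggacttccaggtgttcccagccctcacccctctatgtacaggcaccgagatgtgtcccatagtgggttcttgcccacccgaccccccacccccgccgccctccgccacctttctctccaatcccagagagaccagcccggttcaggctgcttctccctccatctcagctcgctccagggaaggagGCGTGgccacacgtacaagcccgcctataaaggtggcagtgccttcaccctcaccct
TIPARP: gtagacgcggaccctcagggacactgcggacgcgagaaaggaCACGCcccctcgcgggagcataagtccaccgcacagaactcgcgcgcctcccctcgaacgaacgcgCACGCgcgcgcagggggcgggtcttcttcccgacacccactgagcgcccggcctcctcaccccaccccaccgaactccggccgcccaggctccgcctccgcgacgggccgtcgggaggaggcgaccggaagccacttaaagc
AHRR: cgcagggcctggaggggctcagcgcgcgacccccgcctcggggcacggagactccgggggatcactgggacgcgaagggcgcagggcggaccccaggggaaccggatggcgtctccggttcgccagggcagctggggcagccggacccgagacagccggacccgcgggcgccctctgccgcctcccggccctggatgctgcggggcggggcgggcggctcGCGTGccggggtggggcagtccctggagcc

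Both strands were searched for GCGTG and for ACGTG, a core of the hypoxia response element. Both cores share the letters CGTG, and GCGTG also falls within the broader form of the hypoxia element. GCGTG was found once in the CYP1A1 window, once in the AHRR window and at 2 places in the TIPARP window. The AHR window (chr7:17298402-17298651, plus strand) holds no GCGTG but 2 overlapping ACGTG on opposite strands, and the CYP1A1 window holds 1 ACGTG. Of all 35116 windows of this length, 32.2% hold GCGTG and 18.5% hold ACGTG. The matches describe the letters of these windows. On GRCh37, the build of the expression data, the genes lie at chr7:16955983-17385776 (AHR, plus strand), chr5:321829-438406 (AHRR, plus), chr15:75011883-75017877 (CYP1A1, minus), chr2:38294116-38337044 (CYP1B1, minus) and chr3:156391024-156424559 (TIPARP, plus) in the GENCODE release lifted to that build. All 5 are protein coding. AHRR lies within a longer annotated read-through gene, PDCD6-AHRR, and its values carry the uncertainty of how such reads were counted.

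Levels are RPKM, reads per kilobase of gene scaled to the mapped reads of the library, as deposited. Differences are log2 fold changes of RPKM + 0.1 from limma, fitted to the genes that reached 1 RPKM in 2 or more libraries of a line (12214 genes in PC3, 12283 in LNCaP), and on this scale the change of a low gene is understated. Called means more than 2-fold with an unadjusted P under 0.05, and the adjusted p is the Benjamini-Hochberg value over all genes tested. With 2 libraries against 2, an exact permutation test cannot go below a p of 0.33, so the limma test rests on a spread shared across genes. AHR, CYP1A1, CYP1B1 and TIPARP were tested in PC3, and AHR, CYP1A1 and TIPARP in LNCaP. CYP1A1 passed the limit in PC3 only through the siCtrl libraries in normoxia. The tables of the 2 lines were normalized separately, so levels are set side by side across lines with no test. In bulk RNA, fewer cells that express a gene cannot be told apart from less RNA per cell.

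In PC3 cells the targeted gene ONECUT2 was at 1.77 and 1.16 RPKM in the siCtrl libraries in normoxia against 0.276 and 0.204 RPKM with siOC2. In hypoxia it was at 0.648 and 0.550 RPKM with siCtrl and at 0.125 and 0.214 RPKM with siOC2, so siCtrl and siOC2 libraries did not overlap at either oxygen level. The log2 difference was 2.18 in normoxia and 1.39 in hypoxia, given with no test because the gene passed the limit only through the siCtrl normoxia libraries. ONECUT2 has no value in the Flag-OC2 libraries, and its level with the empty vector was 2.89 to 11.5 RPKM. Of 7 known hypoxia-induced genes, 6 were called higher in hypoxia in each arm of PC3. Over all 12214 genes tested there, 272 were called higher with siCtrl and 135 with siOC2. VEGFA was the exception, at 0.53 with siCtrl and 0.59 with siOC2 on the log2 scale. In LNCaP all 6 tested were called higher in each arm, as were 5.6% (empty vector) and 5.48% (Flag-OC2) of all genes. CA9, a carbonic anhydrase induced by hypoxia, was at 0.938 and 0.386 RPKM in normoxia and at 50.0 and 45.1 RPKM in hypoxia in the siCtrl libraries. It would not have passed the limit in either line without the hypoxia libraries. That favored its part of these counts, so nothing is read from it. HIF1A was not called in any hypoxia comparison. With siCtrl it was at 365 and 480 RPKM in normoxia and at 241 and 185 RPKM in hypoxia. That log2 fold change was -0.99 (adjusted p = 0.428 by limma), just under 2-fold, with an unadjusted P under 0.05. It was -0.57 with siOC2, 0.13 with the empty vector and 0.03 with Flag-OC2. EPAS1 was called higher in hypoxia with siCtrl (1.02, adjusted p = 0.611 by limma) and with the empty vector (1.40, adjusted p = 0.00910). All 7 LNCaP markers were above 1 RPKM in every LNCaP library and all 6 PC3 markers in every PC3 library, and KLK3 (PSA) was listed at 0 in every PC3 library. Of 5 listed markers of leukocytes, fibroblasts and endothelium, COL1A1 reached 2.03 to 4.74 RPKM in PC3 and 7.57 to 25.9 RPKM in LNCaP, VWF reached 2.86 RPKM in LNCaP, and PTPRC, CD14 and COL1A2 were under 1 RPKM in every library. Read counts were not used here. The depth relative to a reference library of the same line, estimated from the steps between low RPKM, was 0.348 in siOC2 hypoxia replicate 1, 0.382 in siCtrl hypoxia replicate 2 and 0.418 in siCtrl normoxia replicate 1, 0.877 to 1.15 in the other PC3 libraries and 0.662 to 1.21 in LNCaP.

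The levels of the 5 members in the cell lines are set side by side here, with no test. AHR, CYP1B1 and TIPARP were higher in every PC3 library than in any LNCaP library. The share of all genes that separate the lines in this way is not given here. AHRR was under 1 RPKM in all 16 libraries, and both AHRR and CYP1A1 spanned overlapping ranges in the lines. CYP1B1 reached 24.1 RPKM in PC3 and was listed at 0 in 7 of 8 LNCaP libraries. The plot of RPKM by library shows all values.

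**Figure D1:**
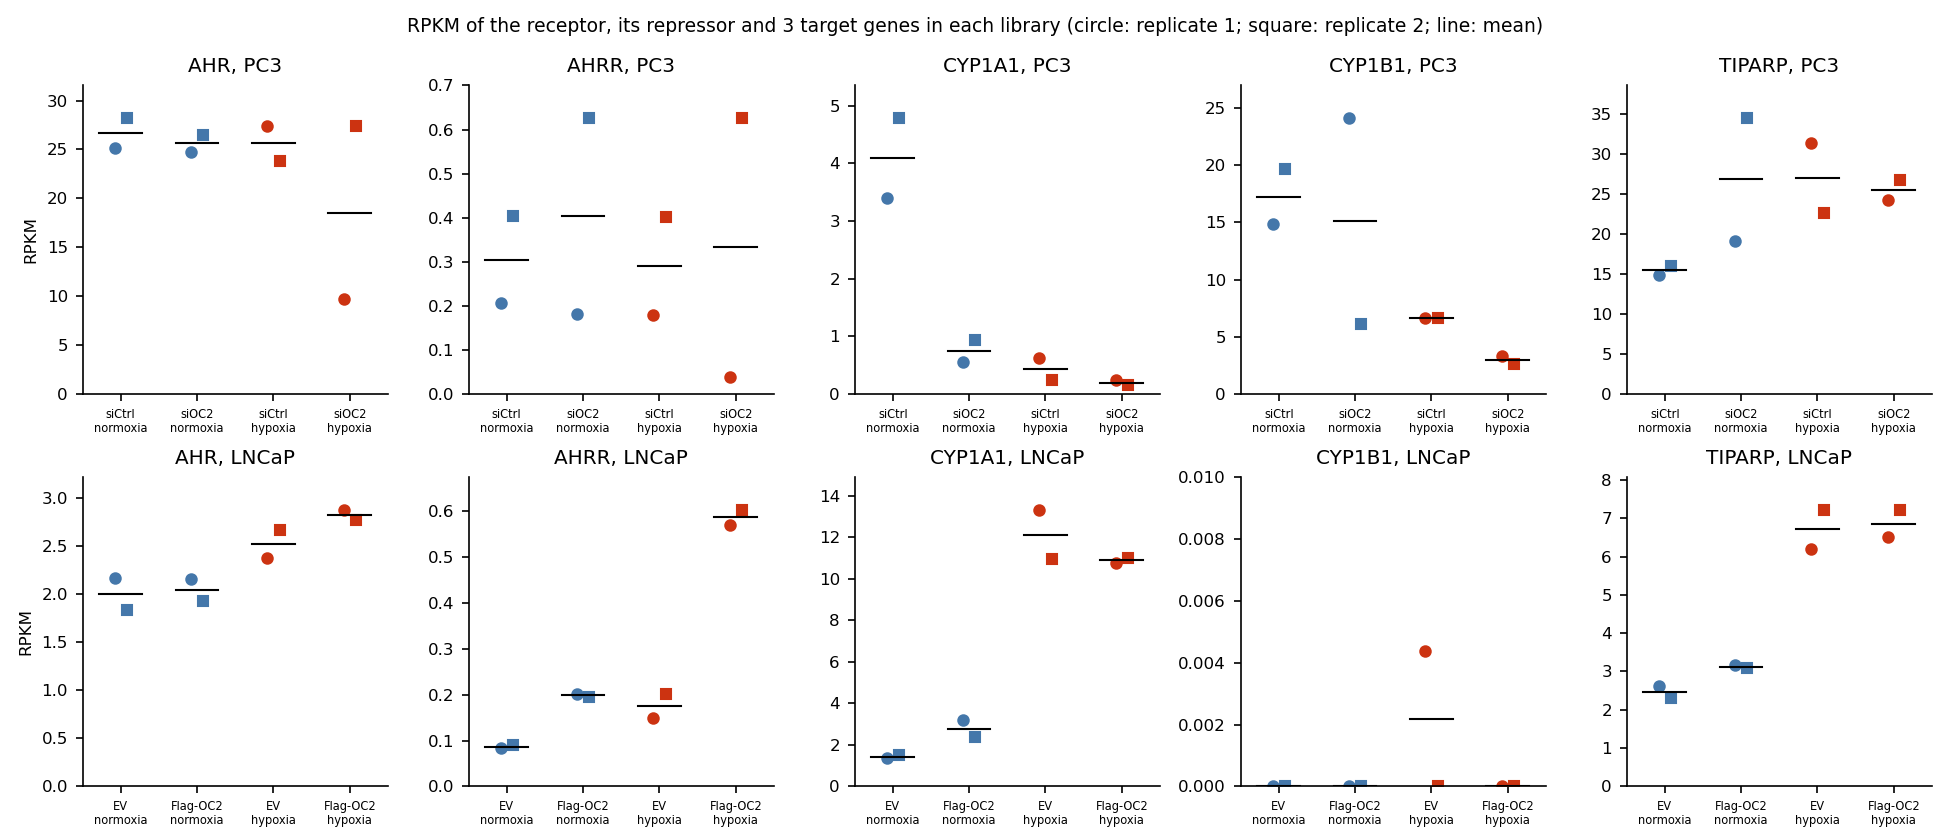
RPKM (vertical axis, from 0, scaled per panel) of AHR, AHRR, CYP1A1, CYP1B1 and TIPARP in each library of PC3 (top) and LNCaP (bottom), with normoxia in blue and hypoxia in red. CYP1A1 was highest in the siCtrl normoxia libraries of PC3 (3.39 and 4.79 RPKM) and in the hypoxia libraries of LNCaP (10.7 to 13.3 RPKM), and CYP1B1 in LNCaP did not exceed 0.00436 RPKM.

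AHR, the receptor, was at 25.1 and 28.3 RPKM in the siCtrl normoxia libraries of PC3 and at 24.8 and 26.5 RPKM with siOC2 in normoxia. The hypoxia libraries had 27.4 and 23.8 RPKM with siCtrl, and 9.73 RPKM with siRNA1 and 27.4 RPKM with siRNA2. All libraries but siRNA1 in hypoxia lay within 23.8 to 28.3 RPKM. The groups overlapped in every comparison. The log2 fold change of AHR in hypoxia was -0.06 ± 0.44 (SE) with siCtrl (adjusted p = 0.997) and -0.65 ± 0.44 with siOC2 (adjusted p = 0.755), and the siCtrl over siOC2 difference was 0.06 ± 0.44 in normoxia (adjusted p = 0.984) and 0.64 ± 0.44 in hypoxia (adjusted p = 0.607). The 95% intervals span -1.06 to 0.94 for hypoxia with siCtrl and -1.65 to 0.36 with siOC2.

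The low AHR value depended on a single library. Without siOC2 hypoxia replicate 2, which leaves siRNA1 alone in that group and assumes it varies like the others, AHR was called lower in hypoxia with siOC2 (log2 fold change -1.39, adjusted p = 0.0251 by limma), lower than siCtrl within hypoxia (siCtrl over siOC2, 1.38) and different between the arms (1.33), while without replicate 1 these values were 0.095, -0.10 and -0.15. The siRNA1 hypoxia library has the lowest relative depth of the PC3 libraries and the lowest median RPKM, 1.61 against 1.97 to 2.73 in the others. The genes most like AHR over the 8 PC3 libraries, by Pearson r of log2 values, were TRIM24 (0.993), DYNLL1 (0.993), MBTPS2 (0.992), VPS54 (0.991) and ACTB (0.990), given as a description. All 5 were lowest in that library, which their choice by likeness to AHR fixed in advance, so nothing is read from it. ACTB (beta-actin), a gene used as a loading standard, was at 643 RPKM there and at 1271 to 1455 RPKM in the other 7. With relative depth as a covariate, added after seeing the data, the log2 fold change of AHR in hypoxia with siOC2 was -0.25 (adjusted p = 1.00 by limma) and the siCtrl over siOC2 difference in normoxia was 0.35 (adjusted p = 0.875).

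In LNCaP cells AHR was lower than in PC3. It was at 2.18 and 1.84 RPKM with the empty vector in normoxia and at 2.16 and 1.93 RPKM with Flag-OC2. Hypoxia gave 2.38 and 2.66 RPKM with the empty vector and 2.88 and 2.77 RPKM with Flag-OC2. Every hypoxic library exceeded every normoxic one. Hypoxia and normoxia libraries did not overlap for 69.4% of all tested genes with the empty vector and for 68.1% with Flag-OC2. The difference was under 2-fold and was not called: the log2 fold change was 0.32 ± 0.17 (SE) with the empty vector (adjusted p = 0.190) and 0.45 ± 0.17 with Flag-OC2 (adjusted p = 0.0903, with an unadjusted P under the limit). Between Flag-OC2 and empty vector AHR differed by 0.03 ± 0.17 in normoxia (adjusted p = 0.935) and by 0.16 ± 0.17 in hypoxia (adjusted p = 0.596).

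AHRR, the repressor, was low in both lines and under the limit for the main test. In PC3 it was at 0.206 and 0.404 RPKM with siCtrl and at 0.183 and 0.626 RPKM with siOC2 in normoxia. Under hypoxia the values were 0.180 and 0.401 RPKM with siCtrl and 0.0392 and 0.627 RPKM with siOC2. Replicate 2 exceeded replicate 1 in all 4 groups, and the groups overlapped in every comparison, so no change of AHRR in PC3 was detectable. Without the limit on low values its log2 fold changes were -0.21, 0.24, -0.07 and -0.51 for siCtrl over siOC2 in normoxia and hypoxia and for hypoxia with siCtrl and with siOC2, with an SE of 0.89 and none called (adjusted p of 0.900 or more by limma). Its lowest value came from the siRNA1 hypoxia library, the shallowest.

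In LNCaP cells AHRR was highest with Flag-OC2 in hypoxia. It was at 0.0837 and 0.0904 RPKM with the empty vector and at 0.202 and 0.195 RPKM with Flag-OC2 in normoxia. Hypoxia gave 0.150 and 0.202 RPKM with the empty vector and 0.571 and 0.603 RPKM with Flag-OC2. The last group lay above the other 6 libraries, the empty vector libraries in normoxia lay below them, and the 2 groups between overlapped. Among the genes of the main test, which leave out AHRR, the vectors did not overlap for 49.4% in normoxia and for 66.4% in hypoxia. In a fit without the limit on low values (18312 genes), AHRR was higher with Flag-OC2 than with the empty vector in hypoxia, with a log2 fold change of 1.32 ± 0.15 (SE) (adjusted p = 0.0106), a call made in that direction for 4.78% of the genes in that fit. With Flag-OC2 it was also higher in hypoxia than in normoxia, by 1.201 ± 0.15 (adjusted p = 0.00774, background 5.01%). The difference of 0.68 ± 0.15 between vectors in normoxia (adjusted p = 0.0808) and the hypoxia difference of 0.56 ± 0.15 with the empty vector (adjusted p = 0.0543) were under 2-fold, and the interaction of 0.64 ± 0.21 was not called (adjusted p = 0.268). With a pseudocount of 1 both calls fell under 2-fold (0.43 and 0.40), with adjusted p of 0.00217 and 0.00192.

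CYP1A1 in PC3 cells was highest with siCtrl in normoxia. It was at 3.39 and 4.79 RPKM with siCtrl in normoxia, at 0.554 RPKM with siRNA1 and 0.944 RPKM with siRNA2 in normoxia, at 0.620 and 0.253 RPKM with siCtrl in hypoxia, and at 0.241 RPKM with siRNA1 and 0.159 RPKM with siRNA2 in hypoxia. From highest to lowest, the group means were 4.09 ± 0.99 (SD, n = 2) with siCtrl in normoxia, 0.749 ± 0.276 with siOC2 in normoxia, 0.436 ± 0.259 with siCtrl in hypoxia and 0.200 ± 0.058 RPKM with siOC2 in hypoxia. The siCtrl normoxia libraries stood above the other 6. The siOC2 normoxia and siCtrl hypoxia libraries overlapped, and the last 2 groups were close, with the lower siCtrl hypoxia library at 0.253 RPKM and the higher siOC2 hypoxia library at 0.241 RPKM.

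As a description, CYP1A1 was 8.20-fold lower in hypoxia with siCtrl (log2 fold change -3.04), a comparison in which 3.86% of all genes were called. Relative to siOC2 it was higher with siCtrl by a log2 fold change of 2.32 in normoxia, where 5.21% of genes were called, and of 0.76 in hypoxia. The normoxia difference and the hypoxia difference share the siCtrl normoxia libraries. The difference between the hypoxia changes of the 2 arms was -1.56. These values rest on the libraries that placed CYP1A1 in the list. With a pseudocount of 1 the hypoxia difference with siCtrl was -1.82 and the normoxia difference between siCtrl and siOC2 1.54. Leaving out siCtrl hypoxia replicate 1 or 2 gave -3.55 or -2.52 for hypoxia with siCtrl, 0.25 or 1.28 for siCtrl over siOC2 in hypoxia, and -2.07 or -1.05 for the difference between arms.

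With siOC2, CYP1A1 was lower in hypoxia by a log2 fold change of -1.47, again as a description. Both siRNAs were lower in hypoxia, with log2 differences of -0.94 with siRNA1 and -2.01 with siRNA2. The value was -0.54 with a pseudocount of 1, -1.28 without siOC2 hypoxia replicate 2 and -1.14 without siOC2 normoxia replicate 2. All 4 values were under 1 RPKM, and relative depth was 0.348 in the siRNA1 hypoxia library against 0.877 to 1.15 in the other 3. With relative depth in the fit the log2 fold change was -1.28.

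In LNCaP cells CYP1A1 was higher in hypoxia. It was at 1.36 and 1.52 RPKM with the empty vector and at 3.18 and 2.39 RPKM with Flag-OC2 in normoxia. In hypoxia the values were 13.3 and 10.9 RPKM with the empty vector and 10.7 and 11.02 RPKM with Flag-OC2. All hypoxic libraries lay above all normoxic ones, Flag-OC2 lay above the empty vector in normoxia, and the vectors overlapped in hypoxia. The vectors did not overlap in normoxia for 49.4% of all tested genes (17.9% higher with Flag-OC2). Hypoxia and normoxia did not overlap for 69.4% with the empty vector and for 68.1% with Flag-OC2. From highest to lowest, the group means were 12.1 ± 1.7 (SD, n = 2) with the empty vector in hypoxia, 10.9 ± 0.2 with Flag-OC2 in hypoxia, 2.79 ± 0.55 with Flag-OC2 in normoxia and 1.44 ± 0.11 RPKM with the empty vector in normoxia. The hypoxia means did not differ beyond their spread.

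CYP1A1 rose 7.92-fold in hypoxia with the empty vector (log2 fold change 2.98 ± 0.18 SE, adjusted p = 3.84e-05) and 3.84-fold with Flag-OC2 (1.94 ± 0.18, adjusted p = 0.000307). Flag-OC2 over empty vector was 0.90 ± 0.18 in normoxia (adjusted p = 0.0287), a 1.86-fold difference that passes the adjusted test but not the 2-fold limit. Without Flag-OC2 normoxia replicate 2 it exceeded 2-fold (1.09). In hypoxia the vectors differed by -0.15 ± 0.18 (adjusted p = 0.627), with a 95% interval of -0.55 to 0.25. The rise in hypoxia was smaller with Flag-OC2, by an interaction of -1.04 ± 0.25 (adjusted p = 0.118), which was called, as were 3.7% of all genes. This call stood at the 2-fold limit: it was lost with a pseudocount of 1 (-0.77), with relative depth in the fit (-0.95), and without empty vector normoxia replicate 1 (-0.97), Flag-OC2 normoxia replicate 1 (-0.85) or empty vector hypoxia replicate 1 (-0.90).

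CYP1B1, the other P450, was measured well above 1 RPKM in PC3. It was at 14.8 and 19.7 RPKM with siCtrl in normoxia, and at 24.1 RPKM with siRNA1 and 6.10 RPKM with siRNA2. In hypoxia CYP1B1 was at 6.68 and 6.65 RPKM with siCtrl, at 3.35 RPKM with siRNA1 and at 2.63 RPKM with siRNA2. Every hypoxic library was below every normoxic library of its own arm, and the siOC2 hypoxia libraries were the lowest of the 8. Hypoxia and normoxia did not overlap for 55.0% of all tested genes with siCtrl (32.9% lower) and for 28.3% with siOC2 (20.9% lower). The siRNAs stood far apart in normoxia, on either side of the siCtrl libraries.

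CYP1B1 was called lower in hypoxia in both arms. With siOC2 the log2 fold change was -1.999 ± 0.56 (SE) (adjusted p = 0.719), and this call held under every alternative run. By siRNA the difference was -2.81 with siRNA1 and -1.19 with siRNA2. With siCtrl it was -1.34 ± 0.56, 2.54-fold (adjusted p = 0.638), and this call was lost without a limit on low values, without the mean-variance trend, with relative depth in the fit (-1.33), and when any of the 4 siCtrl libraries was left out (-1.55 to -1.14). With siOC2, 2.35% of all genes were called lower like CYP1B1 (3.46% in either direction). With siCtrl, 1.63% of all genes were called lower. Over all genes the median was -0.22 on the log2 scale in hypoxia with siOC2, and upper-quartile scaling moved it to -0.09 and the calls from 135 higher and 287 lower to 166 and 197. CYP1B1 was then at -1.87 and CYP1A1 at -1.36.

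The difference of CYP1B1 between siCtrl and siOC2 was not called. It was 0.49 ± 0.56 in normoxia (adjusted p = 0.874) and 1.14 ± 0.56 in hypoxia (adjusted p = 0.462), where the groups did not overlap, as for 38.4% of all tested genes (19.6% higher with siCtrl). The hypoxia difference was called in a fit to those groups alone, with the replicate number as a block, and when either siOC2 normoxia library was left out. Without the siRNA1 normoxia library the difference in normoxia became 1.47 and was called, and without siRNA2 it was -0.50, with an interaction of 1.64 that was called. The hypoxia marker NDRG1 was also unequal between these libraries, at 425 RPKM with siRNA1 and 70.9 RPKM with siRNA2 in normoxia, where siCtrl had 176 and 192 RPKM. The interaction of CYP1B1 was 0.65 ± 0.79 (adjusted p = 1.00).

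In LNCaP cells CYP1B1 was listed at 0 in every library but empty vector hypoxia replicate 1, at 0.00436 RPKM. No comparison was made. ACIN1, PAIP1 and PABPN1 were at 77.9 RPKM or more in every LNCaP library. They were picked among genes without any value of 0, so nothing about CYP1B1 is read from them. Why CYP1B1 was listed at 0 was not tested.

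TIPARP was abundant in PC3. It was at 14.9 and 16.1 RPKM with siCtrl in normoxia and at 31.4 and 22.7 RPKM with siCtrl in hypoxia. With siOC2 in normoxia it was at 19.2 RPKM with siRNA1 and 34.6 RPKM with siRNA2, and in hypoxia at 24.3 and 26.8 RPKM. The siCtrl normoxia libraries were the lowest of the 8, and the other 3 groups overlapped. TIPARP was higher in hypoxia with siCtrl by 0.78 ± 0.34 (SE) on the log2 scale (adjusted p = 0.666), which is under the 2-fold limit, although its unadjusted P was under 0.05. With siOC2 it differed by -0.01 ± 0.34 (adjusted p = 0.995), with a 95% interval of -0.79 to 0.76. By siRNA the differences had opposite signs, 0.34 with siRNA1 and -0.37 with siRNA2. Upper-quartile scaling turned the siOC2 value to 0.12.

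Against siOC2, TIPARP was lower with siCtrl in normoxia, by -0.73 ± 0.34 (adjusted p = 0.570), and did not overlap, as for 46.4% of all tested genes (31.4% lower with siCtrl), but was not called. In hypoxia the difference was 0.07 ± 0.34 (adjusted p = 0.964). Without the siRNA1 normoxia library the normoxia difference became -1.15 and the interaction, 0.80 ± 0.48 in all libraries (adjusted p = 1.00), became 1.22, and both were called. Of AHR, CYP1B1 and TIPARP, none was called between siCtrl and siOC2 in either oxygen state, where 5.21% (normoxia) and 7.5% (hypoxia) of all genes were called, or in the interaction, where 0.942% were.

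In LNCaP cells TIPARP rose in hypoxia with either vector. It was at 2.63 and 2.31 RPKM with the empty vector and at 3.17 and 3.08 RPKM with Flag-OC2 in normoxia. Hypoxia gave 6.20 and 7.22 RPKM with the empty vector and 6.501 and 7.21 RPKM with Flag-OC2. The normoxic libraries all lay below the hypoxic ones, which overlapped between vectors. Hypoxia and normoxia did not overlap for 69.4% of all tested genes with the empty vector and for 68.1% with Flag-OC2. The rise was 2.65-fold with the empty vector (log2 fold change 1.40 ± 0.15 SE, adjusted p = 0.000474) and 2.15-fold with Flag-OC2 (1.11 ± 0.15, adjusted p = 0.00183). With a pseudocount of 1 the latter was 0.93, under 2-fold (adjusted p = 0.00153). Between vectors TIPARP differed by 0.33 ± 0.15 in normoxia (adjusted p = 0.220) and by 0.03 ± 0.15 in hypoxia (adjusted p = 0.914), and the interaction was -0.30 ± 0.21 (adjusted p = 0.513).

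CYP1A1 and TIPARP were thus 2 of 3 tested members called higher in hypoxia in LNCaP in each arm, where 5.6% (empty vector) and 5.48% (Flag-OC2) of all genes were called higher, and 7.95% and 6.84% in either direction. None of these tested members was called between the vectors, where 3.29% (normoxia) and 4.47% (hypoxia) of genes were called. AHRR is outside these counts. In the fit without the limit on low values it was called higher with Flag-OC2 in hypoxia (1.32), and higher in hypoxia with Flag-OC2 (1.201). With a pseudocount of 1 both AHRR values fell under 2-fold. Both arms of each line have their own normoxic libraries, so the hypoxia values of the arms share no library.

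**Figure D2:**
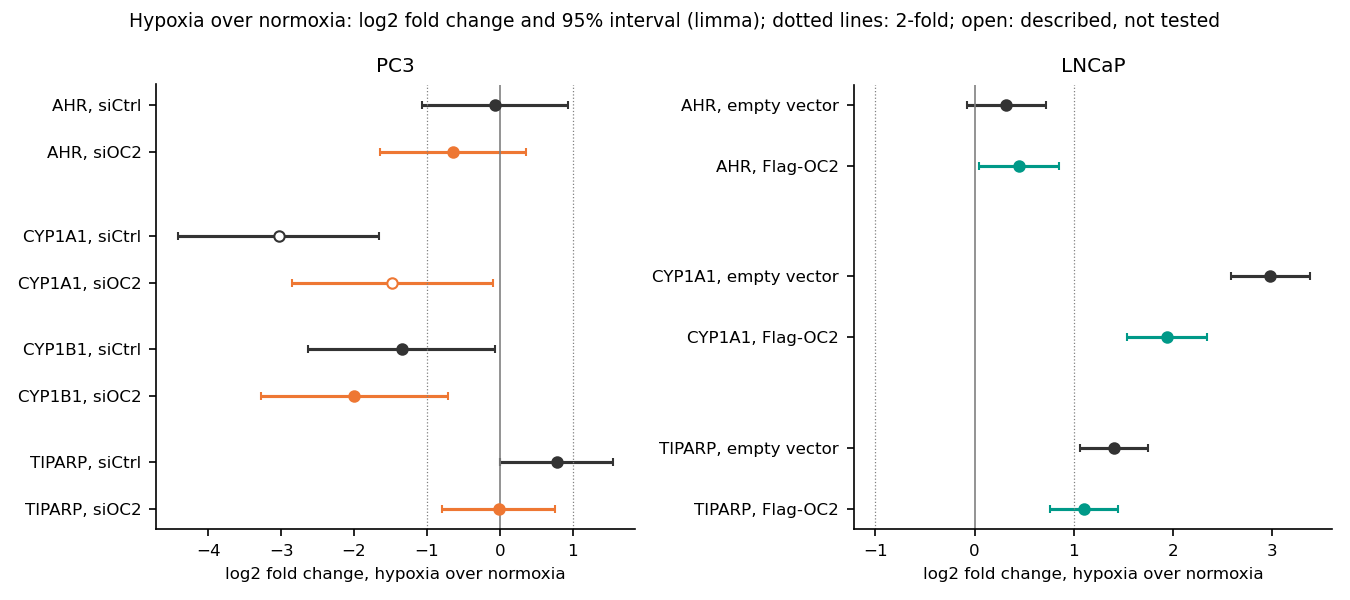
Log2 fold change in hypoxia over normoxia (horizontal axis) of the tested members with 95% intervals from limma, in PC3 (left) with siCtrl or siOC2 and in LNCaP (right) with empty vector or Flag-OC2. CYP1A1 was at -3.04 and -1.47 in PC3 (open symbols, described only) and at 2.98 and 1.94 in LNCaP, and CYP1B1 at -1.34 and -1.999 in PC3.

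The plot of the hypoxia differences shows PC3 and LNCaP on opposite sides of 0 for CYP1A1, with wider intervals in PC3 than in LNCaP. The plot of the ONECUT2 differences shows that most intervals include 0.

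**Figure D3:**
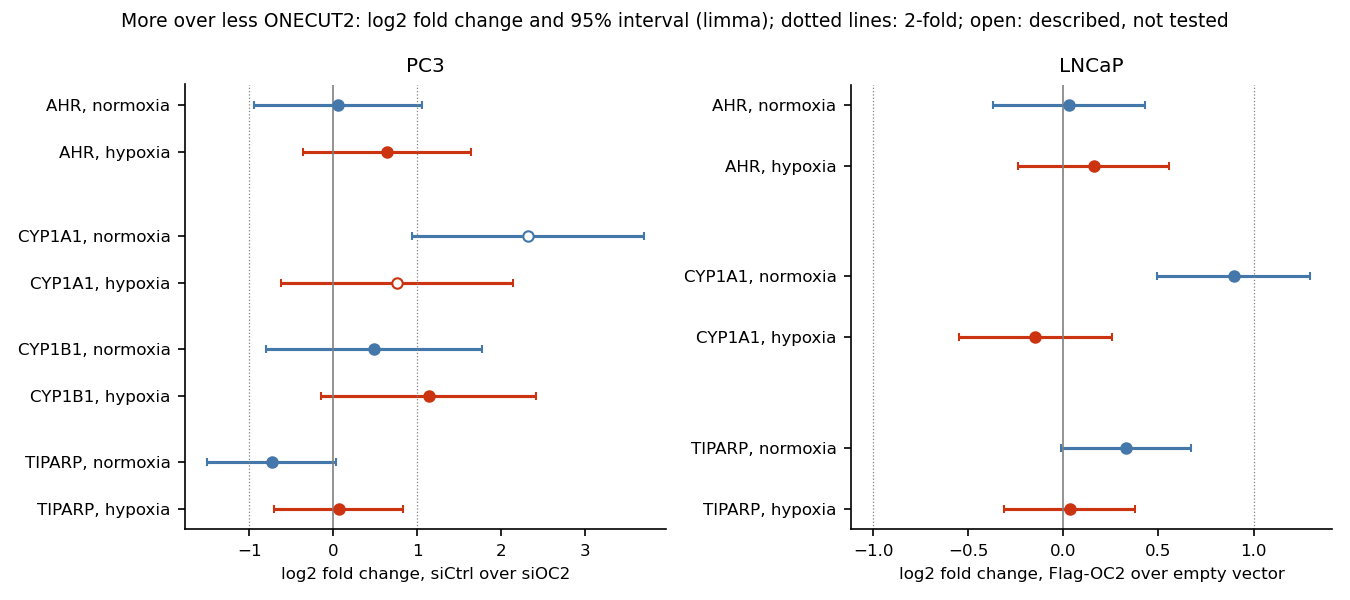
Log2 fold change (horizontal axis) of siCtrl over siOC2 in PC3 (left) and of Flag-OC2 over empty vector in LNCaP (right), in normoxia (blue) and hypoxia (red), with 95% intervals from limma. Of the tested values only CYP1A1 in LNCaP in normoxia (0.90) has an interval that excludes 0, and open symbols are CYP1A1 in PC3, which is described only.

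The plot by siRNA shows the siOC2 libraries of PC3 separately. Both siRNAs were lower in hypoxia for CYP1A1 and CYP1B1. AHR had log2 differences of -1.34 with siRNA1 and 0.05 with siRNA2, each from 1 library at each oxygen level.

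**Figure D4:**
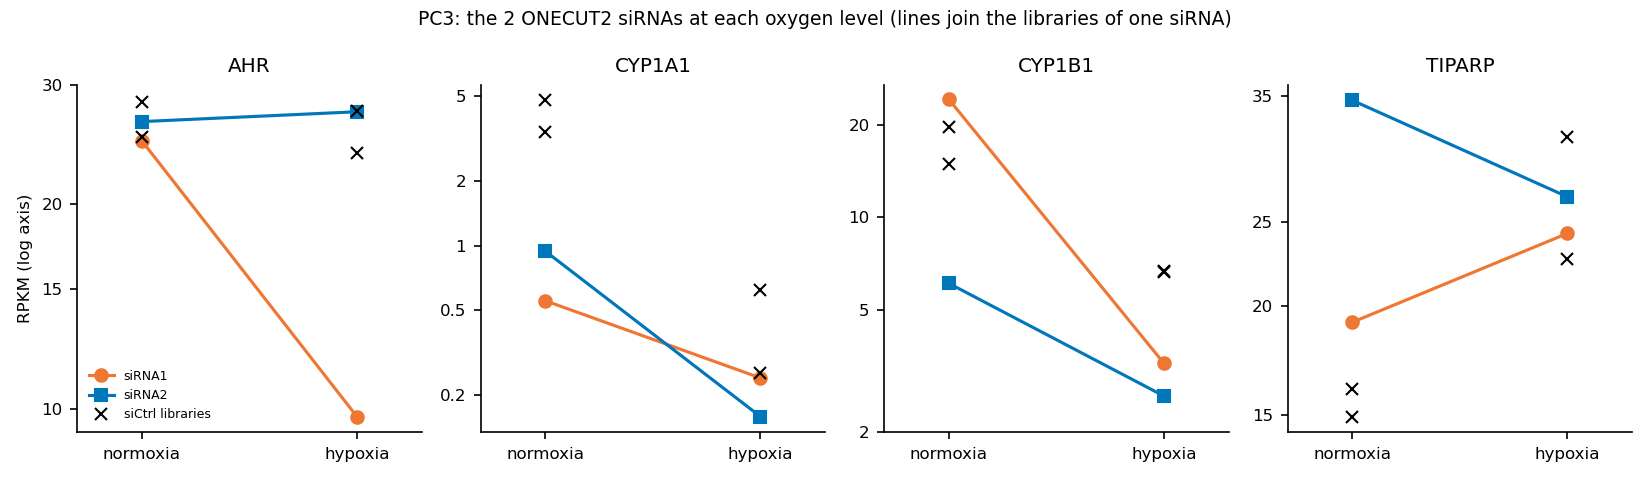
RPKM (log axis) of AHR, CYP1A1, CYP1B1 and TIPARP in PC3 in normoxia and hypoxia, with a line joining the libraries of siRNA1 and of siRNA2 and crosses for the siCtrl libraries. AHR with siRNA1 in hypoxia (9.73 RPKM) lies apart from the other 7 libraries (23.8 to 28.3 RPKM).

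The genes whose pattern was most like a member were ranked by Pearson r over the 8 libraries of a line, which share the same groups, so the values are a description. For CYP1A1 in LNCaP they were P4HA2 (0.997), which encodes a collagen prolyl hydroxylase subunit, CLK3 (0.995), RERE (0.993), SOX9 (0.993) and IRX5 (0.993), of 12202 genes compared. P4HA2 was at 21.4 and 21.6 RPKM with the empty vector and at 31.0 and 27.3 RPKM with Flag-OC2 in normoxia, and at 63.1 to 71.7 RPKM in hypoxia. It shares with CYP1A1 the step between vectors in normoxia. Its choice by likeness to CYP1A1 made this likely in advance, so nothing is read from it. TIPARP stood at rank 48 for CYP1A1 (0.978) and AHR at rank 1231 (0.853).

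For TIPARP in LNCaP the closest genes were ZDBF2 (0.993), SPRY1 (0.992), ZNF8 (0.991), KBTBD2 (0.990) and PYGO1 (0.990), and for AHR they were MFSD2A (0.985), PABPN1 (0.980), SMURF2 (0.980), ACIN1 (0.977) and PAIP1 (0.975). For CYP1A1 in PC3 they were GPRC5C (0.955), ANXA4 (0.946), PDS5A (0.945), RHBDD3 (0.943) and OSGIN2 (0.943). ANXA4 was at 4.81 and 4.67 RPKM with siCtrl in normoxia, at 2.93 and 3.65 RPKM with siOC2, and at 1.98 to 2.18 RPKM in hypoxia. Like CYP1A1 it was highest with siCtrl in normoxia and lower in hypoxia, with a smaller range, and its siCtrl and siOC2 libraries overlapped in hypoxia. Its choice by likeness to CYP1A1 made such a pattern likely in advance, so nothing is read from it. CYP1B1 stood at rank 461 for CYP1A1 in PC3 (0.721) and TIPARP at a negative r (-0.60). For TIPARP in PC3 the closest genes were PAXIP1 (0.930), TAF6 (0.929), PANK2 (0.924), ZNF713 (0.917) and DDX26B (0.909).

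The wider pathway was described by a list of 30 genes: 8 partners of the receptor, 15 other reported targets and 7 enzymes that make tryptophan-derived ligands or break down their precursors. Of these, 20 were tested in PC3 and 17 in LNCaP. In hypoxia with siCtrl, 2 of 20 were called higher and none lower (3.86% of all genes were called in either direction), and with siOC2 1 was called higher and none lower (3.46%). In LNCaP 1 of 17 was called higher and 3 lower with the empty vector (7.95%), and 3 higher and none lower with Flag-OC2 (6.84%). None of the 8 partners was called by limma in hypoxia in PC3, where 0 with siCtrl and 1 with siOC2 had an unadjusted P under 0.05. In LNCaP 5 of the 8 had such a P with the empty vector and 6 with Flag-OC2, in either direction. Over all 12283 genes tested there, 5459 and 4984 had such a P. Of the partners in LNCaP, only ARNT2 was called in hypoxia, with Flag-OC2. ARNT, the partner of the receptor and of HIF, was at 3.58 to 9.05 RPKM in PC3, with a hypoxia difference of -0.05 ± 0.37 (SE) with siCtrl (adjusted p = 0.997) and -0.72 ± 0.37 with siOC2 (adjusted p = 0.727). In LNCaP ARNT differed by 0.32 ± 0.12 with the empty vector (adjusted p = 0.0694) and by 0.12 ± 0.12 with Flag-OC2 (adjusted p = 0.484).

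The other targets differed in direction among themselves. The median log2 fold change of the 8 tested other targets in PC3 was 0.24 in hypoxia with siCtrl, against -0.07 over all genes, and -0.21 with siOC2, against -0.22. In LNCaP it was -0.06 with the empty vector (all genes 0.02) and 0.72 with Flag-OC2 (all genes 0.09). CCNG2, encoding cyclin G2, a cell cycle inhibitor, was called higher in hypoxia in all 4 arms: from 2.24 and 2.47 RPKM to 12.6 and 11.7 RPKM with siCtrl, a log2 fold change of 2.32 ± 0.40 (adjusted p = 0.0793). Its log2 fold change was 1.63 with siOC2 (adjusted p = 0.647), 1.09 with the empty vector (adjusted p = 0.00152) and 1.498 with Flag-OC2 (adjusted p = 0.000506). Without empty vector normoxia replicate 2 the third value was 0.90, under 2-fold. STC2, a secreted glycoprotein, was called higher in hypoxia with siCtrl (1.51 ± 0.28, adjusted p = 0.105), at 12.6 and 14.9 RPKM in normoxia and 42.0 and 36.4 RPKM in hypoxia.

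NQO1, a quinone reductase and a classical target of the receptor, named after its values were seen, fell from 78.0 and 80.1 RPKM to 36.1 and 37.6 RPKM with the empty vector, a log2 fold change of -1.10 ± 0.11 (adjusted p = 0.000314). With Flag-OC2 it was at -0.85 ± 0.11 (adjusted p = 0.00142), under 2-fold. CYP2S1, a further P450, fell from 0.758 and 0.957 RPKM to 0.160 and 0.142 RPKM with the empty vector (-1.92 ± 0.27, adjusted p = 0.00163) and was at 1.52 and 1.36 RPKM and at 0.866 and 0.716 RPKM with Flag-OC2 in normoxia and hypoxia. It passed the limit on low values only through the Flag-OC2 normoxia libraries, and with a pseudocount of 1 its value was -0.69, under 2-fold. CYP2S1 and CYP1A1 thus had opposite signs in hypoxia with the empty vector.

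GSTA1, encoding a glutathione transferase, showed the largest difference of the pathway genes named. In LNCaP it was at 14.1 and 16.7 RPKM with the empty vector and at 24.8 and 35.2 RPKM with Flag-OC2 in normoxia, and at 7.03 and 6.87 RPKM and at 100.1 and 73.0 RPKM in hypoxia. The groups did not overlap. It was higher with Flag-OC2 in hypoxia by 3.60 ± 0.20 (adjusted p = 4.97e-05), fell in hypoxia with the empty vector (-1.13 ± 0.20, adjusted p = 0.00426) and rose with Flag-OC2 (1.53 ± 0.20, adjusted p = 0.00156). GSTA1 has close paralogs, which the counting may not separate, and it was listed at 0 in all 8 PC3 libraries. Between vectors, 2 of 17 pathway genes were past the limits in hypoxia, GSTA1 and CYP2S1 (1.82), both higher with Flag-OC2 (4.47% of all genes called). None was called in normoxia by limma (3.29%), with 4 at an unadjusted P under 0.05, where GSTA1 differed by 0.94 ± 0.20 (adjusted p = 0.0350). CYP2S1 passed the limit on low values only through the Flag-OC2 normoxia libraries, and its hypoxia values were all under 1 RPKM. Its part of these counts is a description, with no test. ARNT2, a paralog of ARNT, was called higher in hypoxia with Flag-OC2 (1.43 ± 0.33, adjusted p = 0.0152), from 1.14 and 1.98 RPKM to 4.64 and 3.82 RPKM.

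Of the 4 tested enzymes in PC3 that make receptor ligands or break down their precursors, AFMID (0.19 and 0.24) and KMO (-1.03 and 0.15) were not called between siCtrl and siOC2 in normoxia and hypoxia. IL4I1 and KYNU would not have passed the limit on low values without siOC2 libraries, which favored a difference. They are given as a description, with no test. For KYNU 1 siCtrl normoxia library, at 1.43 RPKM, was also above the limit. IL4I1, an amino acid oxidase whose products activate the receptor, was at 0.389 and 0.388 RPKM with siCtrl and at 1.39 and 1.40 RPKM with siOC2 in normoxia. In hypoxia it was at 0.406 and 0.474 RPKM with siCtrl and at 1.19 and 3.65 RPKM with siOC2. The log2 difference of siCtrl over siOC2 was -1.61 in normoxia and -2.03 in hypoxia. KYNU (kynureninase), which breaks down the ligand precursor kynurenine, was at 0.702 and 1.43 RPKM with siCtrl and at 3.88 and 1.88 RPKM with siOC2 in normoxia, and at 0.571 and 0.759 RPKM and at 2.98 and 2.00 RPKM in hypoxia. Its log2 difference was -1.34 in normoxia and -1.74 in hypoxia.

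STC2 was called lower with siCtrl in normoxia (-1.23 ± 0.28, adjusted p = 0.203). With IL4I1 and KYNU, 3 of 20 pathway genes were past the limits there, all lower with siCtrl, where 5.21% of all genes were called. In hypoxia IL4I1 and KYNU were past the limits as lower and IL1B and NCOA2 were called higher (7.5% of all genes). Nothing is read from these counts, since the filter favored the part of IL4I1 and KYNU. IL1B, the interleukin-1 beta cytokine gene, was at 543 and 520 RPKM with siCtrl and at 228 and 197 RPKM with siOC2 in hypoxia (1.33 ± 0.33, adjusted p = 0.158). NCOA2, a coactivator, differed by 1.04 ± 0.36 (adjusted p = 0.301). It was named after its values were seen, and its call was lost with a pseudocount of 1 (0.91), with upper-quartile scaling (0.98) and without siCtrl hypoxia replicate 1 (0.85). The plot of the pathway genes gives the log2 fold change of each named gene in the 8 comparisons.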

How the data were processed

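The RNA-Seq values of 16 libraries were used, without the 12 ChIP-Seq samples. The deposited values are RPKM per gene symbol: the authors prepared stranded mRNA libraries and, per the submitters' processing notes, used STAR 2.4.2a and Cufflinks 2.1.1 with the builds hg19 and GRCh37. Groups were taken from the labels. Read depth is not given by RPKM, so no counting interval was computed, and relative depth was estimated from the steps between low values. In each line, genes reaching 1 RPKM in 2 or more libraries entered a limma model (version 3.58.1, R 4.3.3) of log2(RPKM + 0.1) on the 4 groups, with a mean-variance trend. Tests are 2-sided. The contrasts were more over less ONECUT2 in normoxia and in hypoxia, hypoxia over normoxia within an arm, and the interaction. AHRR was fitted without the limit on low values. Scripts were tested on simulated data. The members, the pathway list and the tests were chosen with earlier results of these data known. Named were the members, up to 8 pathway genes called in any comparison and without a value of 0 in the line tested (largest fold change first), ARNT, and the 5 genes most like CYP1A1, TIPARP and AHR. Alternatives were pseudocount 1, a minimum of 5 RPKM or none, upper-quartile scaling (75% quantile), a fit to only the groups compared, a replicate block, no trend and leaving out each library. A crossed block and relative depth as a covariate were added after seeing the data. Promoter windows came from RefSeq (GRCh38.p14), where 4 of the 5 members matched. CYP1B1 had no entry. Python 3.11.15 with pandas 2.3.3 was used for tables.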

Additional observations from a re-analysis of the deposited data

Results flagged for a closer look

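Some differences between arms or lines met a rule for a closer look, and no explanation was tested for any of them. By the interaction test in limma, the hypoxia response of CYP1A1 in LNCaP was smaller with Flag-OC2 than with the empty vector (log2 difference -1.04, adjusted p = 0.118), and that of GSTA1 differed by 2.66 (adjusted p = 0.0135). That of CYP2S1 differed by 1.13 (0.24 with a pseudocount of 1), a description with no test, because the gene passed the limit on low values only through the Flag-OC2 normoxia libraries, which enter this difference. In PC3 the response of IL1B differed by 1.23 between siCtrl and siOC2 (adjusted p = 1.00), and this call was lost with upper-quartile scaling (1.07), without the trend and without siCtrl normoxia replicate 1 (1.13). IL1B was 0.39 in hypoxia with siCtrl and -0.84 with siOC2, and GSTA1 was -1.13 with the empty vector and 1.53 with Flag-OC2.

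Across the lines, whose tables were normalized separately, the differences were not tested. CYP1A1 was at -3.04 (siCtrl) and -1.47 (siOC2) in PC3, both described values, in hypoxia against 2.98 (empty vector) and 1.94 (Flag-OC2) in LNCaP, with every library of a hypoxia group on the same side of its normoxia group. Groups in hypoxia and normoxia did not overlap for 55.0% and 28.3% of all tested genes in those arms of PC3 and for 69.4% and 68.1% in those of LNCaP. ARNT2 was at -0.71 and -0.28 in PC3 against 1.43 with Flag-OC2, and ARNT at -0.72 with siOC2 against 0.32 with the empty vector.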

How the results depend on the processing

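Of 35 member values, 18 kept their side of the limits, or for described values stayed within the replicate spread, under every alternative run, and 17 did not under at least 1. CYP1A1 in PC3 in hypoxia with siOC2, although a described value, was counted here by the limits. No called value changed sign, but 11 uncalled values, of AHR, CYP1B1 and TIPARP, did under at least 1 alternative. A pseudocount of 1 gave CYP1A1 in PC3 1.54 and 0.25 for siCtrl over siOC2 in normoxia and hypoxia, -1.82 for hypoxia with siCtrl and -0.54 with siOC2, and in LNCaP 0.93 for TIPARP in hypoxia with Flag-OC2 and -0.77 for the CYP1A1 interaction. CYP1B1 in hypoxia with siCtrl, -1.34, was no longer called without a limit on low values or without the trend, nor at -1.33 with relative depth as a covariate, which also ended the call of the CYP1A1 interaction in LNCaP (-0.95) and gave -1.28 for CYP1A1 in hypoxia with siOC2, a described value. In a fit to only the groups compared, CYP1A1 in hypoxia with siOC2 was at -1.47 and CYP1B1 for siCtrl over siOC2 in hypoxia (1.14) was called. The latter (1.14) was also called with the replicate block and with a crossed pairing, which was added after seeing the data, as was the depth covariate. The replicate block changed no other member's call. In the siOC2 groups the number is the siRNA, which ties their normoxia and hypoxia libraries (correlation of deviations 0.62), and with the block CYP1B1 in hypoxia with siOC2 stayed called (adjusted p = 0.435 by limma). No source ties the other same-numbered libraries, whose correlations ran from -0.19 to 0.08 in PC3 and from -0.06 to 0.27 in LNCaP. Genes called in PC3, in the order siCtrl over siOC2 in normoxia and hypoxia, hypoxia with siCtrl and siOC2, and interaction, were 761, 1105, 562, 554 and 129 with the replicate block and 692, 1015, 514, 452 and 121 with the crossed one.

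Counts of called genes that moved over 1.5 times were, with a pseudocount of 1, 238 (PC3 hypoxia with siOC2, 422 in the test as reported) and 178, 281, 594, 483 and 216 for Flag-OC2 over empty vector in normoxia and hypoxia, hypoxia with empty vector and with Flag-OC2, and interaction in LNCaP (404, 549, 976, 840 and 454 as reported). Without a limit on low values they were 282 (PC3 interaction, 115 as reported) and 779, 1024 and 760 (LNCaP between vectors in normoxia, in hypoxia, and interaction). With a minimum of 5 RPKM they were 423, 309, 264 and 64 in PC3 (normoxia between siRNAs, 636 as reported, hypoxia with siCtrl, 471, with siOC2, and interaction) and 137, 197, 602, 489 and 196 in LNCaP. The groups compared alone gave 778 (hypoxia with siCtrl) and 181 (with siOC2), and depth as a covariate 216 (with siOC2). Leaving out each library gave the following ranges. AHR in PC3 was -1.39 to 0.095 in hypoxia with siOC2, -0.10 to 1.38 for siCtrl over siOC2 in hypoxia and -0.15 to 1.33 for the interaction. CYP1A1 in PC3 was -3.55 to -2.52 and -1.81 to -1.14 in hypoxia with siCtrl and siOC2, 0.25 to 1.28 for siCtrl over siOC2 in hypoxia and -2.07 to -1.05 for the interaction. CYP1A1 in LNCaP was 0.70 to 1.09 between vectors in normoxia and -1.24 to -0.85 for the interaction. CYP1B1 was -1.55 to -1.14 in hypoxia with siCtrl, -0.50 to 1.47 and 0.97 to 1.31 for siCtrl over siOC2 in normoxia and hypoxia and -0.33 to 1.64 for the interaction. TIPARP in PC3 was -1.15 to -0.31 for siCtrl over siOC2 in normoxia and 0.37 to 1.22 for the interaction. Called genes in PC3 were 371 to 823 and 564 to 2404 for siCtrl over siOC2 in normoxia and hypoxia, 308 to 628 and 311 to 2803 for hypoxia with siCtrl and siOC2, and 47 to 1529 for the interaction. The cause of these changes was not tested. Upper-quartile scaling moved the split of called genes from 194 higher and 442 lower to 261 and 341 (siCtrl over siOC2 in normoxia) and from 85 and 30 to 60 and 61 (PC3 interaction), with a shift of the median of -0.16 in the latter.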
